A study of Mus musculus with 14 samples.

Results

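Gene expression in mouse kidney 24 h after an injection of MnDps was set against that 4 h after it. The libraries were chosen by their titles alone, 2 at 24 h and 3 at 4 h, which makes 5 of the 14 libraries of the series. All 24421 genes of the count table were considered, and 14854 carried enough counts to be tested. Every mouse was a male C57BL/6J, and every injection went into a vein. The MnDps 24 h group (2 libraries), the MnDps 4 h group (3), the Dps 24 h group (3) and the Dps 4 h group (3) received 18 mg/kg, and the vehicle group (3) serves as the control. The series title describes protein nanocages aimed at the proximal tubule, the nephron segment that recovers filtered protein. The labels spell out neither short name, give no time for the vehicle mice and no hour of day for any kidney. Nor do they state that each library is a different animal; p-values therefore measure only the spread between these libraries, which may be technical.

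Proximal tubule cells take up filtered proteins through the receptors megalin and cubilin. Foreign protein or material carried with it can meet innate sensors, which switch on type I interferon and NF-kB signalling. Interferon acts through a complex that includes Stat2 and Irf9 and binds the interferon-stimulated response element of its target genes, and NF-kB drives chemokines, adhesion molecules and acute-phase proteins. Both programmes are known to be transient after one stimulus, since they induce their own inhibitors. Usp18, Socs1 and Socs3 are such inhibitors for interferon and other cytokine signalling.

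Levels are in CPM, that is counts scaled to the effective size of each library, listed by replicate number, and changes are log2 fold changes of 24 h over 4 h ± SE. Every p given is from edgeR's quasi-likelihood test, adjusted over all 14854 genes by the Benjamini-Hochberg method, and calls were made below 0.05. Total counts were 15097093 and 23591909 in the MnDps 24 h libraries and 23410617, 26490966 and 22228392 in the MnDps 4 h libraries. Replicate 3 of MnDps 4 h stood apart from its group. Its counts differed from those of replicates 1 and 2 by a chi-square per degree of freedom of 28 and 30, against 9.05 between replicates 1 and 2 and 11.8 between the 24 h libraries. The first principal component of the 5 libraries, with 64.1% of the variance, separated the times. Markers matched the labelled tissue, since Kap, an androgen-regulated protein of the proximal tubule, took 3.71% and 4.21% of the counts at 24 h, against 4.47%, 5.04% and 5.45% at 4 h.

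From 4 h to 24 h the kidney lost most of an early inflammatory transcript pattern, and many endothelial and some cell cycle transcripts increased. Of the genes tested, 1502 were higher at 24 h (10.1%) and 1740 were lower (11.7%). Among them 351 and 431 changed by more than 2-fold. The median log2 fold change of all tested genes was −0.01, and the middle 50% lay between −0.24 and 0.24. The falls reached further than the rises: 55 of 58 interferon response genes fell and none rose, at a median of −2.72. Among endothelial markers 20 of 36 rose and 2 fell, at a median of 0.62. The counts rest on a pair of 24 h libraries: 1837 genes were called without replicate 1 of MnDps 24 h and 1336 without replicate 2, each with the lone library assumed to vary like the other groups.

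**Figure D1:**
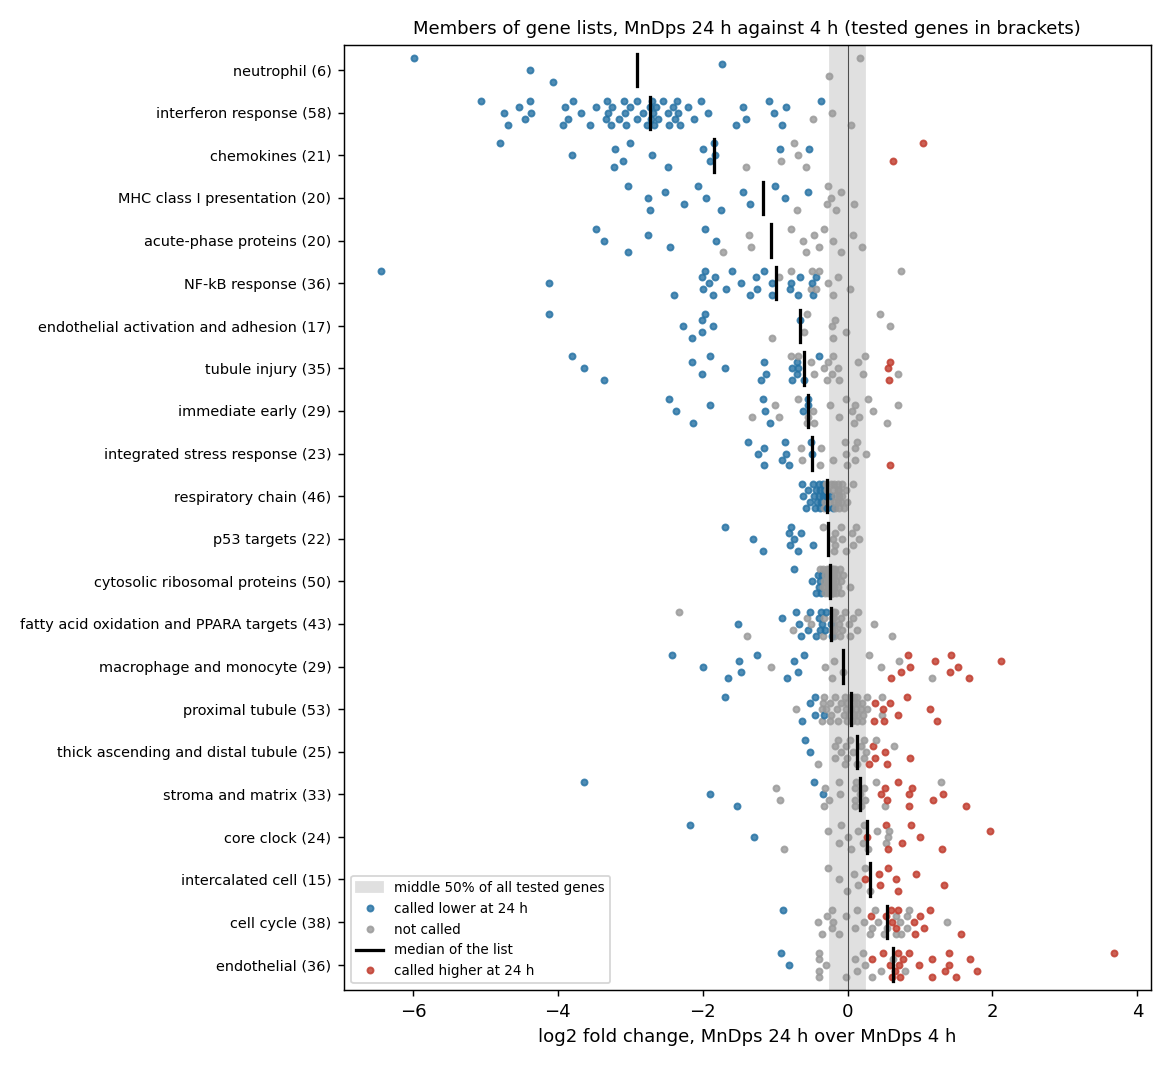
Log2 fold change of MnDps 24 h over MnDps 4 h for every tested member of 22 gene lists (points; blue called lower, red called higher, grey not called), with the median of each list as a black bar and the middle 50% of all tested genes as a grey band. The neutrophil, interferon, chemokine and MHC class I lists have their medians far left of the band, and the endothelial and cell cycle lists have their medians right of it.

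Interferon target genes fell almost as a whole. Ifit1, which binds foreign RNA, stood at 23.4 and 18.1 CPM in the MnDps 24 h libraries, against 448, 412 and 424 in the MnDps 4 h libraries and 4.89, 7.11 and 5.49 with vehicle (−4.37 ± 0.18, adjusted p = 4.99e-10). The ubiquitin-like modifier Isg15 had 13 and 10.1 CPM at 24 h, against 259.7, 266 and 359 at 4 h and 3.73, 5.39 and 3.31 with vehicle (−4.69 ± 0.27, adjusted p = 1.32e-07). Oasl1, a relative of the antiviral oligoadenylate synthetases, had 8.2 and 8.44 CPM at 24 h, against 273, 248 and 315 at 4 h and 2.91, 3.55 and 2.1 with vehicle, which was the largest fall of the list (−5.06 ± 0.28). In these 3 genes every 24 h library lay far below every 4 h library and still above every vehicle library. The fall took in the deconjugating enzyme Usp18 (−3.92 ± 0.21), the antiviral GTPase Mx1 (−3.31 ± 0.35), the immunity-related GTPases Igtp (−3.79 ± 0.33) and Irgm1 (−2.72 ± 0.22), and the guanylate-binding protein Gbp2 (−3.86 ± 0.41). Ifit3 (−4.53 ± 0.23) and Ifit3b (−4.75 ± 0.19) fell together, but they are near-identical copies between which counting could split reads. Ifi47 (−4.45 ± 0.28) shares 111 exon bases and its strand with Olfr56, Igtp shares 162 with Irgm2, and Irf9 shares 123 with Rnf31, so these values are uncertain in the same way.

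Components of the pathway itself fell as well. Stat2, which carries the signal of type I interferon receptors to the nucleus, had 35.1 and 35.9 CPM at 24 h, against 219.7, 162 and 207 at 4 h and 27.5, 32.2 and 26.1 with vehicle (−2.46 ± 0.15, adjusted p = 8.74e-09). Its partner Irf9 (−1.55 ± 0.13) and the interferon regulatory factor Irf1 (−3.0 ± 0.26) fell too. The cytosolic RNA sensors Ddx58 (−2.35 ± 0.13), Ifih1 (−2.69 ± 0.15) and Dhx58 (−3.55 ± 0.19) were lower at 24 h, as was the endosomal RNA receptor Tlr3 (−1.65 ± 0.15). Smaller falls were those of the ubiquitin ligase Trim25 (−0.85 ± 0.08) and the nuclear body protein Sp100 (−1.02 ± 0.19). The antiviral enzyme Rsad2 fell by more (−2.31 ± 0.26).

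Many interferon genes had not returned to the vehicle level. Against vehicle, 29 of the 58 were still higher at 24 h and none was lower, where 4.93% of all tested genes were higher and 8.39% lower. Irf7, the regulator that amplifies interferon production, had 241 and 203 CPM at 24 h, against 463, 389 and 567 at 4 h and 12.5, 19.8 and 14.2 with vehicle. It fell by the time comparison (−1.09 ± 0.24, adjusted p = 0.00774) but stayed 3.85 ± 0.25 above vehicle on the log2 scale (adjusted p = 1.68e-05). Without replicate 2 of MnDps 24 h the Irf7 fall was −0.97 and no longer called. Bst2, the membrane tether that holds budding virus, behaved alike, at 133 and 98 CPM at 24 h, against 279, 264 and 402 at 4 h and 15.5, 20.2 and 12.9 with vehicle (−1.45 ± 0.25). The membrane restriction factor Ifitm3 fell by a similar amount (−1.4 ± 0.23) and was 1.5 ± 0.23 above vehicle.

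Others hardly moved between the times. Ifi27, a mitochondrial interferon-induced protein, had 149.7 and 134 CPM at 24 h, against 146, 164 and 183 at 4 h and 38.7, 38.4 and 31.6 with vehicle. The time groups overlapped (−0.21 ± 0.12, adjusted p = 0.215), while its level at 24 h was 1.97 ± 0.12 above vehicle (adjusted p = 9.74e-08). Ifi27l2a had 40.3 and 31 CPM at 24 h, against 30.5, 34.9 and 37.5 at 4 h and 3.62, 12.3 and 7.54 with vehicle (0.05 ± 0.36, adjusted p = 0.936). Lgals3bp, a secreted glycoprotein that binds galectin, had 263 and 232 CPM at 24 h, against 305, 292 and 359 at 4 h and 67.2, 59.6 and 56.2 with vehicle. Its small fall (−0.36 ± 0.12, adjusted p = 0.0433) was lost without replicate 1 (−0.46) or 2 (−0.28) of MnDps 24 h, without replicate 1 (−0.39) or 3 (−0.28) of MnDps 4 h, and after a correction for transcript length and GC content (−0.33).

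**Figure D2:**
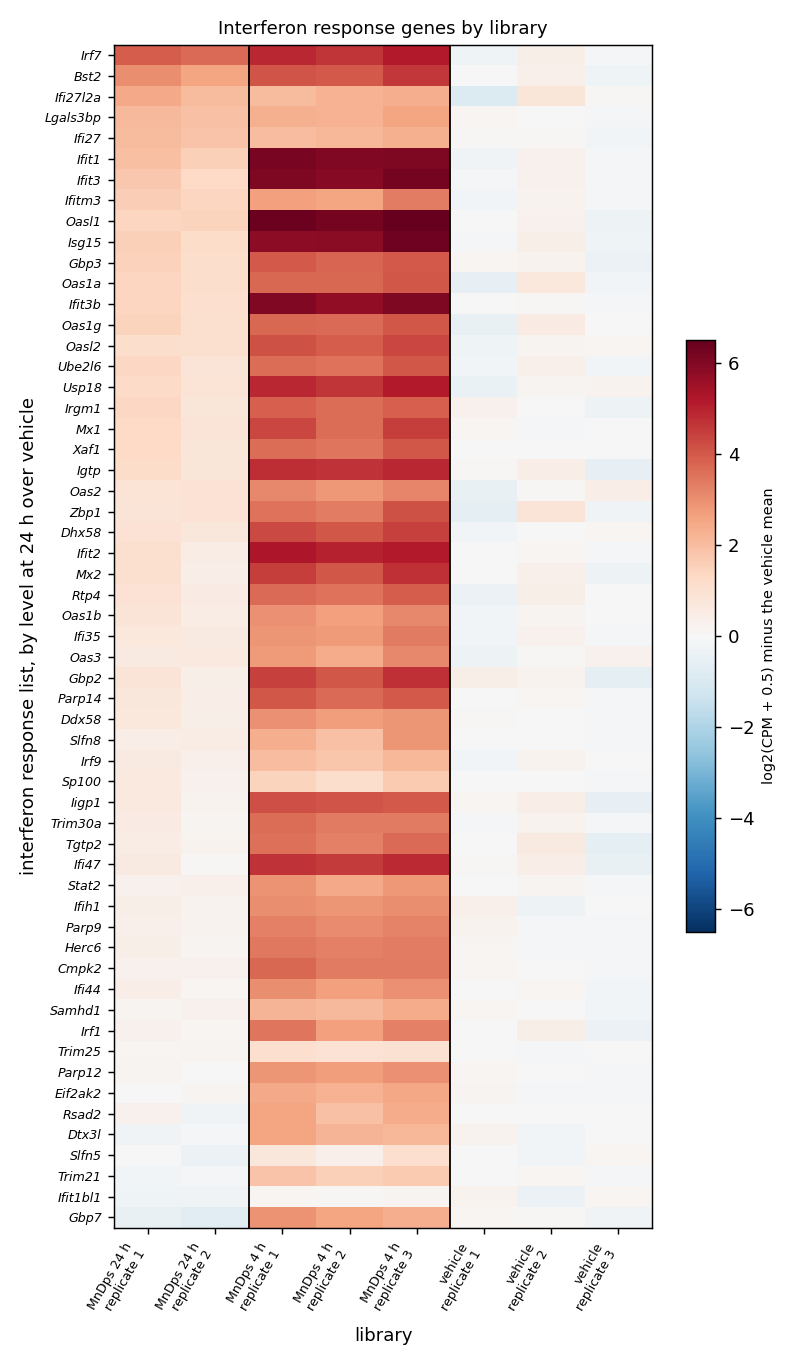
Interferon response genes (from top to bottom ordered by level at 24 h over vehicle, with 1 member of the list not shown) in the MnDps 24 h, MnDps 4 h and vehicle libraries (columns), as log2(CPM + 0.5) minus the vehicle mean. Irf7, Bst2, Ifi27l2a, Lgals3bp and Ifi27 at the top keep their colour at 24 h, whereas most others are far above vehicle at 4 h and much nearer to it at 24 h. Of the 58 genes of the list 29 were still called above vehicle at 24 h.

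The promoters of these genes were read from RefSeq (build GRCm38.p6), 250 bases before to 50 after each start, and searched on both strands for the interferon-stimulated response element written as GAAANNGAAA. The promoter table held 11222 of the 14854 tested genes. A match was found in 28 of 52 promoters of the interferon list (53.8%). Among genes that fell by more than 4-fold, which include only part of that list, 48 of 170 promoters held one (28.2%). Among all tested genes 453 of 14261 promoters held one (3.18%), and among those called higher 2.07%. Within the interferon list the size of the fall did not follow the match: 25 genes with one had a median of −2.67 and 19 genes without one −2.68. The windows printed here show the element, in capitals on whichever strand it lies, for 3 genes with large falls and for Bst2, which stayed high. They lie at chr4:156200856-156200915 (minus strand) for Isg15, chr19:34640760-34640819 (plus strand) for Ifit1, chr3:142620579-142620638 (plus strand) for Gbp2 and chr8:71537562-71537621 (minus strand) for Bst2.
Isg15: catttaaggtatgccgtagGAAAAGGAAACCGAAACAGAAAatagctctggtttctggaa
Ifit1: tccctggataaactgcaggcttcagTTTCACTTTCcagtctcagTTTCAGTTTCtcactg
Gbp2: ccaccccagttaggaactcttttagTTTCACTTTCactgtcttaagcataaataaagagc
Bst2: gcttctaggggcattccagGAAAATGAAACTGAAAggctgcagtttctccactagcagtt

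Antigen presentation through MHC class I split into parts that fell and parts that did not. Of 20 tested genes 13 fell and none rose, at a median of −1.17. Genes that prepare the peptides were among them, namely the immunoproteasome subunits Psmb8 (−2.07 ± 0.27) and Psmb9 (−2.75 ± 0.27), the peptide transporters Tap1 (−3.03 ± 0.21) and Tap2 (−2.26 ± 0.19), and the class I transactivator Nlrc5 (−2.73 ± 0.21). Tap1 had 27.4 and 25.6 CPM at 24 h, against 214, 177 and 257 at 4 h and 18.7, 20.2 and 12.6 with vehicle, so that the 24 h libraries lay near vehicle. Psmb9 and Tap1 overlap by 212 exon bases on opposite strands, and the sources used here do not give the strand setting of the counting.

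The class I heavy chain H2-K1 had 804 and 681 CPM at 24 h, against 775, 745 and 1191 at 4 h and 436, 223 and 208 with vehicle (−0.28 ± 0.32, adjusted p = 0.56). Its time groups overlapped, and replicate 1 of vehicle was the highest of its group. H2-D1 (−0.28 ± 0.23, adjusted p = 0.42) and the light chain B2m (−0.23 ± 0.31, adjusted p = 0.634) also did not pass, and all 3 were above vehicle at 24 h (H2-K1 1.36 ± 0.31, H2-D1 1.31 ± 0.23, B2m 1.08 ± 0.31). In the class II list 1 of 10 genes rose and 1 fell. The gene that fell was the class II transactivator Ciita (−2.45 ± 0.22), at 3.15 and 4.26 CPM at 24 h, against 23.3, 18.2 and 20.5 at 4 h and 6.81, 4.36 and 4.01 with vehicle, which overlaps Dexi by 127 exon bases.

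Of 21 chemokine transcripts 14 fell and 2 rose, at a median of −1.85. Cxcl10, an interferon-induced attractant of T cells, had 6.94 and 5.57 CPM at 24 h, against 195, 117 and 206 at 4 h and 5.49, 5.56 and 3.2 with vehicle (−4.8 ± 0.36, adjusted p = 5.26e-06). Cxcl9 (−3.21 ± 0.45), the monocyte attractant Ccl2 (−3.8 ± 0.38), the lymphocyte attractants Ccl5 (−2.48 ± 0.38) and Ccl19 (−1.83 ± 0.32), and Cx3cl1, the ligand of Cx3cr1 (−0.53 ± 0.10), fell too. Ccl5 kept a level above vehicle, with 9.77 and 7.94 CPM at 24 h, against 33.3, 39.8 and 74.5 at 4 h and 2.25, 0.745 and 0.807 with vehicle (2.89 ± 0.48 over vehicle). Cxcl12, a chemokine that stroma and endothelium make without stimulation, went the other way. It had 188 and 201 CPM at 24 h, against 101, 92.8 and 88.1 at 4 h and 203, 139.8 and 169 with vehicle (1.05 ± 0.13, adjusted p = 4.27e-05). When replicate 2 of MnDps 24 h was left out, 10 chemokines fell and 2 rose.

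NF-kB response genes fell in 25 of 36 cases with none higher, at a median of −0.99. The alternative NF-kB subunits Relb (−1.84 ± 0.20) and Nfkb2 (−1.26 ± 0.12), the nuclear cofactor Bcl3 (−1.59 ± 0.22) and the macrophage growth factor Csf1 (−2.0 ± 0.18) were among them. Nfkb2 overlaps Psd by 299 exon bases on the opposite strand. When replicate 2 of MnDps 24 h was left out, 14 of the 36 fell. The cytokine Il6 was not counted at 24 h or with vehicle and had 30 counts over the 4 h libraries, which makes it at least 5.79-fold lower at 24 h with a floor of 3 counts over the 24 h group (0.0745 CPM). Its call was lost without replicate 2 of MnDps 24 h (adjusted p = 0.0957).

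In the list of interleukin and JAK-STAT feedback genes 14 of 33 fell and 2 rose, and none rose without either 24 h library. Socs1, an inhibitor of cytokine signalling, had 0.567 and 0.491 CPM at 24 h, against 4.65, 2.8 and 5.93 at 4 h and 0.439, 0.459 and 0.565 with vehicle (−3.07 ± 0.40), and Socs3 gave −1.92 ± 0.31. The interleukin 1 receptor antagonist Il1rn (−3.79 ± 0.44), the checkpoint ligand Cd274 (−2.65 ± 0.27) and Stat3, which carries interleukin 6 signals (−0.78 ± 0.09), fell too. Of the pattern recognition and cell death genes 15 of 33 fell and 1 rose (7 and none without replicate 2 of MnDps 24 h), including Mlkl, which executes necroptosis (−2.68 ± 0.26), and the inflammatory caspase Casp4 (−2.4 ± 0.30).

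Of 17 adhesion and activation genes of endothelium 8 fell and none rose, at a median of −0.66. Vcam1, the leukocyte adhesion receptor, had 11.7 and 8.97 CPM at 24 h, against 39.3, 31.2 and 53.4 at 4 h and 12.4, 6.59 and 9.1 with vehicle (−2.01 ± 0.31), and Icam1 had 21.5 and 25.2 at 24 h, against 78.4, 65.3 and 111 at 4 h and 21.5, 18.4 and 21.7 with vehicle (−1.85 ± 0.18). In both genes the 4 h libraries lay above all others and the 24 h libraries overlapped the vehicle libraries. The selectins Sele (−1.97 ± 0.42) and Selp (−4.12 ± 0.64) fell at low levels, and Selp gave −4.72 without replicate 2 of MnDps 24 h.

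Acute-phase transcripts fell in 7 of 20 cases with none higher, at a median of −1.06. Without replicate 2 of MnDps 24 h 3 fell, at −0.68, and the median was −1.93 without replicate 1 of MnDps 24 h and −0.45 without replicate 3 of MnDps 4 h. Lcn2, which encodes the injury marker NGAL, had 9.71 and 5.32 CPM at 24 h, against 59.5, 37.2 and 129 at 4 h and 3.84, 4.47 and 2.4 with vehicle (−3.36 ± 0.63, adjusted p = 0.00498). Replicate 3 of MnDps 4 h was the highest, and without it the change was −2.73. Without replicate 2 of MnDps 24 h it was −2.95 and not called. Saa3, a serum amyloid made outside the liver, had 0.378 and 0.778 CPM at 24 h, against 6.51, 4.54 and 9.5 at 4 h and 0, 0.0573 and 0.0269 with vehicle (−3.47 ± 0.42, and −4.15 without replicate 2 of MnDps 24 h). It was still above vehicle by the same test (adjusted p = 0.00734). Haptoglobin, Hp, had 11.2 and 2.42 CPM at 24 h, against 52.5, 63.4 and 40.3 at 4 h and 0.384, 3.78 and 0.969 with vehicle (−3.03 ± 0.69). Its 24 h libraries differed widely, and the change was −4.44 without replicate 1 and −2.22, not called, without replicate 2. The fibrinogen chain Fga fell by less (−1.81 ± 0.31).

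Few complement genes were called between the times. In their list 3 of 22 genes rose and none fell, at a median of −0.12, where 10.1% of all tested genes rose and 11.7% fell. In a fit of only the groups compared 1 fell. Against vehicle 9 were higher at 24 h and 1 lower (5 and 1 after a correction for transcript length and GC content). Of all tested genes 4.93% were above vehicle and 8.39% below. C3, the central component, had 97.8 and 60.6 CPM at 24 h, against 108, 79.7 and 140.3 at 4 h and 16.1, 22.6 and 18.1 with vehicle (−0.47 ± 0.32, adjusted p = 0.325; 2.06 ± 0.33 over vehicle). C4b (−0.58 ± 0.30, adjusted p = 0.186) and Cfb of the alternative pathway (−0.20 ± 0.13, adjusted p = 0.258) did not pass between the times either and were above vehicle (2.26 ± 0.32 and 0.47 ± 0.12). The 3 genes that rose encode the chains of C1q, which tissue macrophages make, and are given with the macrophage markers.

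Leukocyte markers did not move as one. In whole kidney, fewer cells of a type and less RNA per cell cannot be told apart. Too few counts to be tested were found for 10 of 16 neutrophil markers, and 4 of the other 6 fell. S100a8, a calgranulin, had 2 counts over the 24 h libraries, 239 over the 4 h libraries and 2 with vehicle, which is 69.2-fold lower at 24 h after scaling to CPM (95% counting interval 19 to 575). Both 24 h counts were in replicate 1, without which the fitted change was −9.47, against −4.74 without replicate 2. S100a9 had 0.441 and 0.205 CPM at 24 h, against 4.56, 6.18 and 8.59 at 4 h and 0.165, 0.0573 and 0 with vehicle (−4.39 ± 0.46). The summed level of the neutrophil list was 2.46 and 2.38 CPM at 24 h, against 10.99, 14.3 and 18.6 at 4 h and 2.25, 0.917 and 1.78 with vehicle. In fits without replicate 1 or 2 of MnDps 24 h, 2 and 3 of its genes fell, and without replicate 3 of MnDps 4 h 3.

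Macrophage and monocyte markers were divided, with 10 of 29 higher, 10 lower and a median of −0.07 (6 higher and 9 lower without replicate 1 of MnDps 24 h). Among those that rose are genes known from resident tissue macrophages. The fractalkine receptor Cx3cr1 had 8.89 and 8.68 CPM at 24 h, against 1.95, 2.8 and 1.21 at 4 h and 5.6, 3.96 and 4.57 with vehicle (2.12 ± 0.25, adjusted p = 2.09e-05), and C1qa had 34.7 and 32.6 at 24 h, against 10.6, 11.8 and 12.8 at 4 h and 19.98, 17 and 12.3 with vehicle (1.52 ± 0.17). In both genes the 24 h libraries exceeded all 4 h and vehicle libraries. C1qc (1.43 ± 0.18), the signalling adaptor Tyrobp (1.21 ± 0.19) and the mannose receptor Mrc1 (1.68 ± 0.39, and 1.43, not called, without replicate 1 of MnDps 24 h) rose with them. Those that fell include the Fc receptor Fcgr1 (−1.5 ± 0.21) and Plac8 (−1.65 ± 0.24), which interferon induces and monocytes express. The summed level of the list was 528 and 501 CPM at 24 h, against 501, 522 and 649 at 4 h and 472, 413 and 375 with vehicle. Against vehicle 13 of the 29 were higher at 24 h and 1 was lower (8 and 1 after the length and GC correction). The shares of all tested genes were 4.93% higher and 8.39% lower.

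Of 17 dendritic cell markers 2 rose and 4 fell. The integrin Itgax, CD11c, had 8.76 and 8.03 CPM at 24 h, against 2.78, 2.8 and 2.27 at 4 h and 4.78, 3.67 and 2.96 with vehicle (1.67 ± 0.23, adjusted p = 0.00011). Cd209a, a lectin of conventional dendritic cells, had 26 counts over the 24 h libraries, 2 over the 4 h libraries and 117 with vehicle. Its call as higher was lost without replicate 2 of MnDps 24 h, and its 4 h counts came from replicate 3 alone. The transcription factor Irf8, which interferon also induces, fell (−1.74 ± 0.14) to 19.6 and 22.6 CPM at 24 h, against 82.7, 61.2 and 67.8 at 4 h and 20.04, 20.9 and 16.1 with vehicle. Of the markers of T, NK and B cells 1 of 17 rose and none fell.

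Of 36 endothelial markers 20 rose and 2 fell at 24 h, and 15 rose when either 24 h library was left out. Plvap, the diaphragm protein of fenestrated endothelium, had 193 and 167 CPM at 24 h, against 57.6, 54.2 and 79.8 at 4 h and 129.6, 116 and 123 with vehicle (1.49 ± 0.17, adjusted p = 4.77e-05). The angiopoietin receptor Tek had 44.8 and 37.7 CPM at 24 h, against 12.3, 11.5 and 12.1 at 4 h and 38.4, 27.6 and 35.3 with vehicle (1.78 ± 0.17, adjusted p = 4.28e-06). The endothelial phosphatase Ptprb, which restrains Tek, had 46.1 and 44.1 CPM at 24 h, against 15, 15 and 11.7 at 4 h and 48.2, 39.2 and 51.6 with vehicle (1.69 ± 0.13). For each of the 3 the 4 h libraries were the lowest of the 8, and at 24 h Tek and Ptprb did not pass against vehicle (0.28 ± 0.17 and −0.04 ± 0.12) whereas Plvap was above it (0.55 ± 0.17).

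The receptor Tie1 (1.4 ± 0.13), endomucin Emcn (1.17 ± 0.15), the glomerular endothelial protein Ehd3 (1.17 ± 0.22), von Willebrand factor Vwf (1.41 ± 0.28) and the VEGF receptor Kdr (0.76 ± 0.14) rose too. Btnl9, a butyrophilin-like gene of endothelium, gave the largest rise of the rule for named genes, at 2.65 and 2.58 CPM at 24 h, against 0.174, 0.350 and 0.0482 at 4 h and 2.42, 2.12 and 3.98 with vehicle (3.67 ± 0.47; 4.46 without replicate 2 of MnDps 4 h). The peptide Apln, a ligand of endothelial sprouting, fell (−0.91 ± 0.20). After the correction for transcript length and GC content 21 of the 36 rose and 3 fell. Summed over the list, the markers reached 1141 and 1045 CPM at 24 h, against 673, 655 and 778 at 4 h and 943, 858 and 991 with vehicle. Against vehicle 2 of them were higher at 24 h and 1 lower (1 and 2 after the correction). Among all tested genes 4.93% were higher than vehicle and 8.39% lower.

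**Figure D3:**
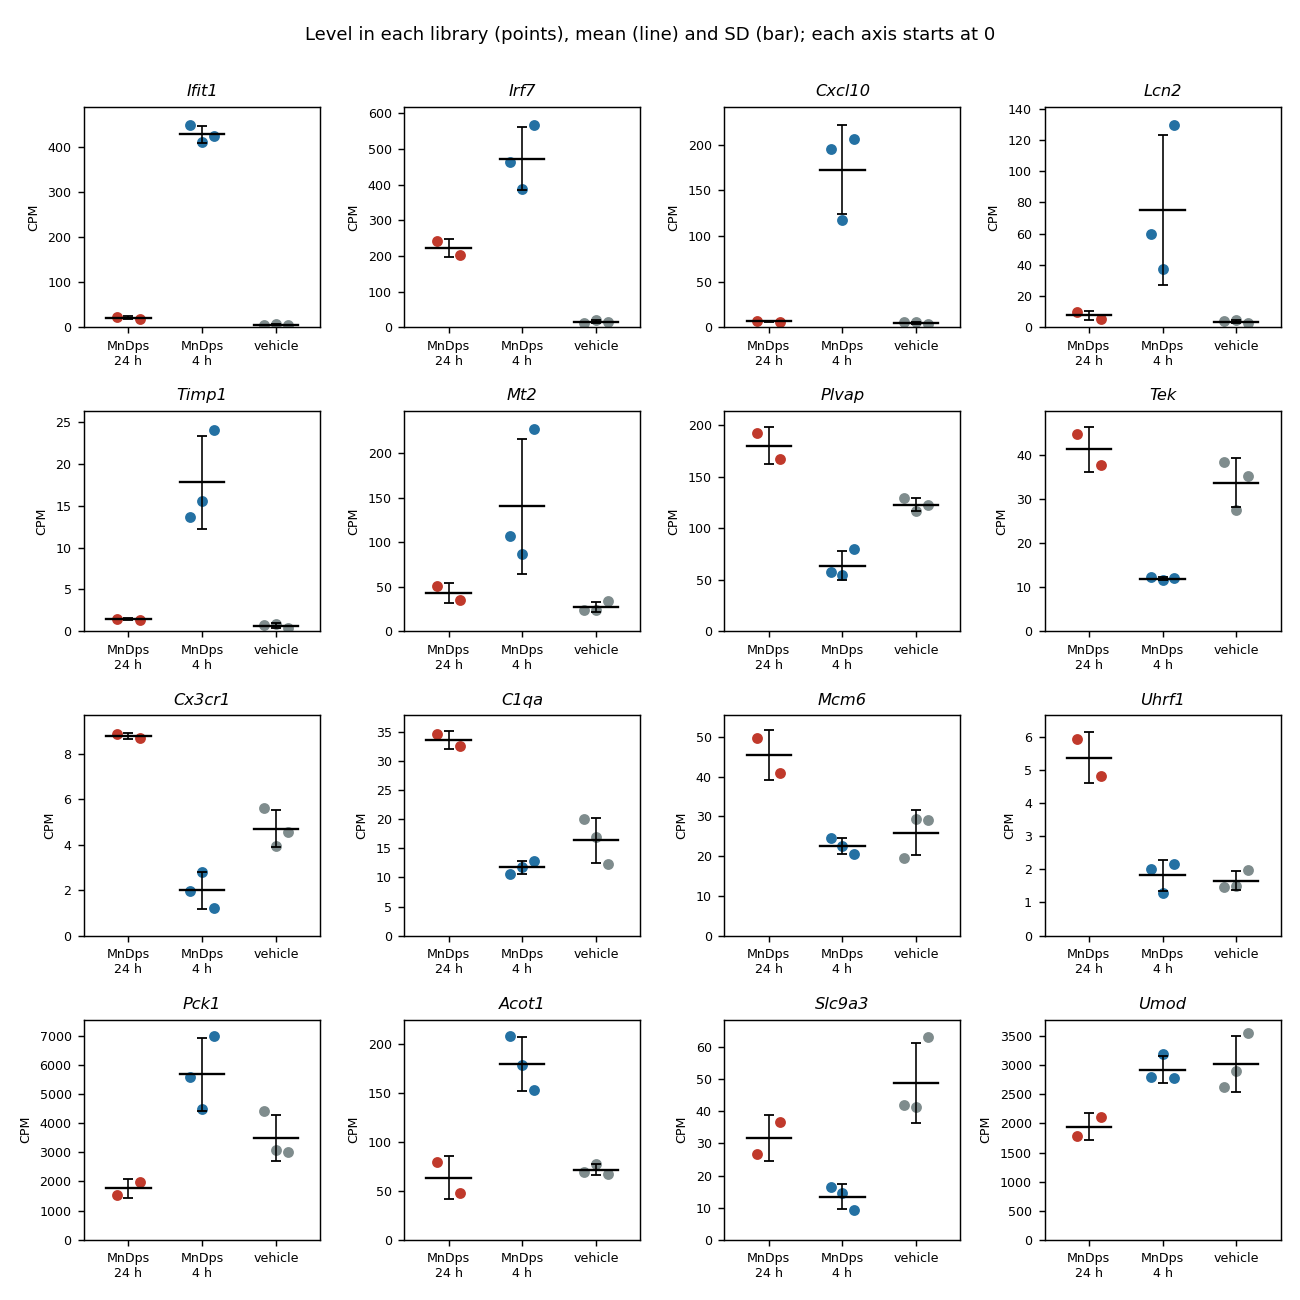
CPM of 16 genes in each MnDps 24 h (red), MnDps 4 h (blue) and vehicle (grey) library, with the group mean as a line and the SD as a bar (n = 2, 3 and 3). Ifit1, Cxcl10, Lcn2 and Timp1 are high only at 4 h among these groups, Irf7 stays above vehicle at 24 h, Plvap, Tek and Slc9a3 have their lowest group at 4 h, and Cx3cr1, C1qa, Mcm6 and Uhrf1 have their highest at 24 h.

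Of 33 stromal and matrix genes 10 rose and 5 fell (4 and 3 without replicate 1 of MnDps 24 h). Collagen VI, Col6a1, had 34.1 and 29.4 CPM at 24 h, against 12.4, 12.2 and 13.5 at 4 h and 27, 23.1 and 29 with vehicle (1.32 ± 0.19), and the gelatinase Mmp2 gave 1.63 ± 0.31. Basement membrane collagen IV moved the other way, with Col4a1 at 227 and 215 CPM at 24 h, against 305, 291 and 315 at 4 h and 247, 251 and 255 with vehicle (−0.46 ± 0.09).

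Of 35 genes used as signs of tubule injury 17 fell and 3 rose (11 and 1 without replicate 2 of MnDps 24 h). The list shares Lcn2, Ccl2 and Vcam1 with the lists above. The protease inhibitor Timp1 had 1.51 and 1.35 CPM at 24 h, against 13.7, 15.6 and 24.1 at 4 h and 0.714, 0.917 and 0.350 with vehicle (−3.64 ± 0.33, adjusted p = 2.19e-06). The cytokine receptor Tnfrsf12a (−1.13 ± 0.15), the stress transcription factor Atf3 (−1.9 ± 0.40) and the cell cycle inhibitor Cdkn1a (−1.69 ± 0.23) fell with it. Havcr1, kidney injury molecule 1 of the proximal tubule, had 5.74 and 1.64 CPM at 24 h, against 6.21, 4.08 and 4.78 at 4 h and 1.26, 2.29 and 1.56 with vehicle (−0.50 ± 0.38, adjusted p = 0.354). Its 24 h libraries disagreed: the change was −1.62 and called (adjusted p = 0.00998) without replicate 1 and 0.19 without replicate 2.

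Of the metallothionein and metal transport genes 7 of 24 fell and 1 rose (4 and none without replicate 2 of MnDps 24 h). Mt2, a metallothionein, had 51.3 and 35.3 CPM at 24 h, against 107, 87 and 227 at 4 h and 24, 24.1 and 33.9 with vehicle (−1.7 ± 0.40, adjusted p = 0.0134; −1.45 and not called without replicate 2 of MnDps 24 h). Mt1 had 135 and 84.9 CPM at 24 h, against 161, 132 and 259.9 at 4 h and 70.6, 76.5 and 65.4 with vehicle (−0.75 ± 0.28, adjusted p = 0.0827; −0.94 and called without replicate 2 of MnDps 4 h). In both genes replicate 3 of MnDps 4 h was the highest. The metalloreductase Steap4 fell (−2.4 ± 0.25), and the zinc exporter Slc30a1 was lower at 24 h (−0.54 ± 0.11) than at 4 h and than with vehicle (−0.52 ± 0.11). Heme oxygenase Hmox1 had 44.7 and 39.6 CPM at 24 h, against 97.7, 97.3 and 95.5 at 4 h and 26.6, 57.2 and 45.2 with vehicle (−1.2 ± 0.27; −1.11 and not called without replicate 2 of MnDps 24 h). The mitochondrial manganese superoxide dismutase Sod2 had 347 and 337 CPM at 24 h, against 361, 368 and 395 at 4 h and 361, 349 and 319.6 with vehicle, and did not pass (−0.13 ± 0.08, adjusted p = 0.219). Thioredoxin Txn1 fell (−0.56 ± 0.12), as 1 of 4 antioxidant genes of 21 that did, with 1 higher. Of these genes 2 fell when either 24 h library was left out and 1 with the length and GC correction. NRF2 targets and heme genes gave 4 of 27 lower and 1 higher (none lower and 2 higher without replicate 2 of MnDps 24 h).

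Stress and early response genes fell in part. Immediate early genes fell in 10 of 29 cases with none higher (4 without replicate 2 of MnDps 24 h), with the phosphatase Dusp2 (−2.46 ± 0.34) and the small Maf protein Maff (−2.14 ± 0.36) ahead of Jun (−1.15 ± 0.25; −1.07 and not called without replicate 2 of MnDps 24 h). Fos had 0.757 and 0.983 CPM at 24 h, against 0.955, 1.71 and 2.51 at 4 h and 0.878, 0.688 and 2.8 with vehicle and did not pass (adjusted p = 0.249). Of the integrated stress response genes 10 of 23 fell and 1 rose, among them the mitochondrial folate enzyme Mthfd2 (−1.24 ± 0.22) and the stress hormone Gdf15 (−1.16 ± 0.20). Of that list, 6 fell without replicate 1 of MnDps 24 h, 4 without replicate 2 of MnDps 24 h and 6 without replicate 3 of MnDps 4 h. The p53 targets fell in 10 of 22 cases with none higher (3 without replicate 2 of MnDps 24 h), including the death receptor Fas (−1.31 ± 0.21).

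Of 38 cell cycle genes 12 rose and 1 fell, at a median of 0.54. At 24 h 12 were above vehicle and none below, where 4.93% of all tested genes were above and 8.39% below. Mcm6, a subunit of the replicative helicase, had 49.8 and 41 CPM at 24 h, against 24.6, 22.6 and 20.5 at 4 h and 19.4, 29.2 and 29.1 with vehicle (1.0 ± 0.18, adjusted p = 0.00162). Uhrf1 takes part in the copying of DNA methylation marks behind the fork. It had 5.93 and 4.83 CPM at 24 h, against 1.997, 1.28 and 2.17 at 4 h and 1.48, 1.49 and 1.99 with vehicle (1.57 ± 0.23, adjusted p = 0.000166). For both, each 24 h library exceeded every 4 h and vehicle library. Mcm5 (1.05 ± 0.16) and Mcm3 (0.92 ± 0.18) rose as well. The topoisomerase Top2a (1.14 ± 0.27) had 8.2 and 4.38 CPM at 24 h, against 2.48, 2.18 and 3.86 at 4 h, and was not called without replicate 1 of MnDps 24 h (0.63). In that fit 6 genes of the list rose, at a median of 0.24, and 8 did without replicate 2 of MnDps 4 h.

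The circadian clock differed between the times. The sources used here do not give the hour of day at which kidneys were taken, so time since injection and time of day cannot be told apart. Of 24 clock genes 8 rose and 2 fell. Arntl, the activator BMAL1, had 1.32 and 1.64 CPM at 24 h, against 7.69, 8.16 and 4.44 at 4 h and 5.54, 6.71 and 4.14 with vehicle (−2.17 ± 0.32, adjusted p = 0.000174). The repressor Per2 had 68.7 and 66 CPM at 24 h, against 22.8, 22.2 and 37.4 at 4 h and 37.9, 38.4 and 52.6 with vehicle (1.3 ± 0.27, adjusted p = 0.00655). The output factor Dbp had 244 and 248 CPM at 24 h, against 117, 116 and 138 at 4 h and 109.8, 104 and 137 with vehicle (1.0 ± 0.12, adjusted p = 4.37e-05). Arntl stood alone at the low end and Per2 and Dbp at the high end in the 24 h libraries, without overlap with the other 6 libraries. Dbp overlaps Sphk2 by 539 exon bases on the opposite strand, and Sphk2 was lower at 24 h, with a mean of 41.3 CPM against 61.5 at 4 h.

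The repressor Ciart rose to 27.9 and 21 CPM at 24 h, against 5.56, 3.46 and 9.94 at 4 h and 11.7, 7.57 and 15.4 with vehicle (1.96 ± 0.34), and Per3 (0.88 ± 0.11) and Tef (0.76 ± 0.11) rose with it. Per1 (0.41 ± 0.42), Cry1 (0.23 ± 0.26), the nuclear receptor Nr1d1 (0.53 ± 0.18), Nfil3 (−0.88 ± 0.43) and Clock (−0.27 ± 0.11) did not pass. Nr1d1, which overlaps Thra by 263 exon bases, gave 0.70 and was called without replicate 1 of MnDps 24 h, and Clock gave −0.38 and was called without replicate 3 of MnDps 4 h. Against vehicle 6 clock genes were higher at 24 h and 5 lower, where 4.93% of all tested genes were higher and 8.39% lower. Clock proteins bind the E-box CACGTG, and Dbp and its relatives bind the D-box TTATGNAA. The E-box was found in 6 of 26 clock gene promoters (23.1%), against 9.52% of all promoters, and the D-box in 2 of 26 (7.69%), against 2.23%. Windows with the motif in capitals are given for Ciart (E-box, chr3:95882240-95882299, minus strand) and Per3 (D-box, chr4:151044790-151044849, minus strand), both of which rose.
Ciart: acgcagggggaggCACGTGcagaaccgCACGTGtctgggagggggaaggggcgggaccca
Per3: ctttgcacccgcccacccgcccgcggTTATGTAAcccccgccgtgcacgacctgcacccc

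**Figure D4:**
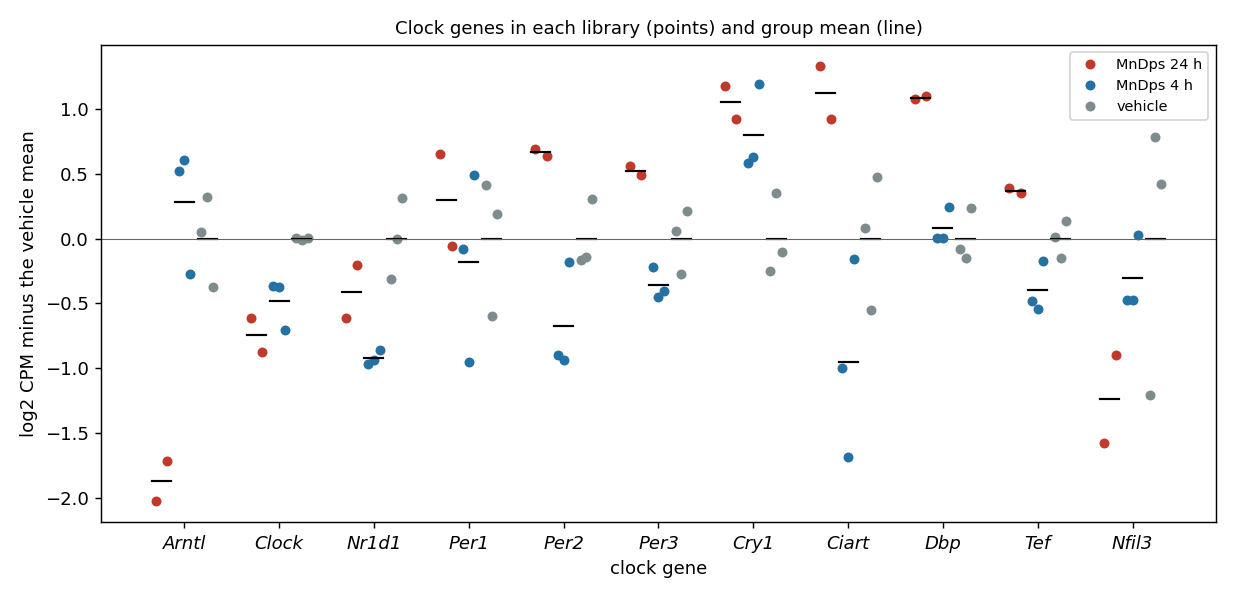
Log2 CPM minus the vehicle mean of 11 clock genes in each MnDps 24 h (red), MnDps 4 h (blue) and vehicle (grey) library, with the group mean as a line. Arntl lies below both other groups at 24 h, whereas Dbp, Per2, Per3 and Tef lie above both other groups.

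Of 53 proximal tubule genes 9 rose and 6 fell, at a median of 0.05 (5 and 4 without replicate 1 and 3 and 4 without replicate 2 of MnDps 24 h). The sodium-proton exchanger Slc9a3 had 26.7 and 36.7 CPM at 24 h, against 16.5, 14.7 and 9.26 at 4 h and 41.8, 41.3 and 63.2 with vehicle (1.24 ± 0.23, adjusted p = 0.00242). The neutral amino acid transporter Slc7a8 (0.82 ± 0.13) and the basolateral glucose transporter Slc2a2 (0.58 ± 0.11) rose too, and Slc2a2 was still below vehicle (−0.43 ± 0.11). The phosphate transporter Slc34a1 had 5025 and 6499 CPM at 24 h, against 4911, 5107 and 5069 at 4 h and 6282, 6690.4 and 6672 with vehicle (0.20 ± 0.10, adjusted p = 0.165), and 0.36, called, without replicate 1 of MnDps 24 h. Kap fell (−0.45 ± 0.12), which was −0.36 and not called without replicate 1 of MnDps 24 h and −0.05 after the correction for transcript length and GC content.

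Of the 33 tested genes of receptor-mediated uptake 5 rose and none fell (3 without replicate 1 and 2 without replicate 2 of MnDps 24 h). Cubn, cubilin, had 567 and 553 CPM at 24 h, against 412, 389.8 and 366 at 4 h and 504, 462 and 535 with vehicle (0.52 ± 0.09, adjusted p = 0.000861), and the correction gave 0.28. Lrp2, megalin, had 2138 and 2237 CPM at 24 h, against 1881, 1908 and 1654 at 4 h and 2439, 2475 and 2739 with vehicle (0.27 ± 0.09, adjusted p = 0.0382). Its call was lost without replicate 1 (0.29) or 2 (0.24) of MnDps 24 h, without replicate 3 of MnDps 4 h (0.20) and with the correction, where the value was −0.03. Both receptors have long transcripts (15460.0 bases for Lrp2 and 11262 for Cubn), and longer transcripts had higher fold changes in this comparison (Spearman's rho 0.29 across 14760 genes, which are not independent replicates).

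Downstream segments showed mixed changes. In the thick ascending limb and distal tubule list 6 of 25 genes rose and 2 fell (3 and none without replicate 1 of MnDps 24 h). The thiazide-sensitive cotransporter Slc12a3 had 1195 and 1083 CPM at 24 h, against 771, 799.6 and 767 at 4 h and 987, 949 and 1117 with vehicle (0.55 ± 0.08), whereas uromodulin, Umod, had 1781 and 2106 at 24 h, against 2800.1, 3186 and 2788 at 4 h and 2618, 2903 and 3547 with vehicle (−0.59 ± 0.14; −0.48 and not called without replicate 1 of MnDps 24 h). Principal cell markers rose in 5 of 15 cases and fell in 1 (3 and none without replicate 2 of MnDps 24 h), with the sodium channel subunit Scnn1g (0.52 ± 0.10) and the cortisol-inactivating enzyme Hsd11b2 (0.50 ± 0.10) higher. Intercalated cell markers rose in 8 of 15 with none lower (5 without replicate 1 of MnDps 24 h). Among them the anion exchanger Slc4a1, which red cell precursors also express, had 86.9 and 43.9 CPM at 24 h, against 28.3, 29.9 and 19.2 at 4 h and 44.6, 41.9 and 39.9 with vehicle (1.33 ± 0.24). Podocyte markers rose in 2 of 19 cases and fell in 2.

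In the metabolic lists most genes were not called. Pck1, the gatekeeper of gluconeogenesis in the proximal tubule, had 1539.7 and 1977 CPM at 24 h, against 5577, 4468 and 6979 at 4 h and 4402, 3070.2 and 3023 with vehicle (−1.69 ± 0.26, adjusted p = 0.000983), so that the 24 h libraries lay below all others. In its list 4 of 24 genes fell and 3 rose (2 and 2 without replicate 2 of MnDps 24 h). Cebpa, a transcription factor of metabolic genes, also fell (−1.19 ± 0.12). Fatty acid oxidation and PPARA target genes fell in 16 of 43 cases with none higher, at a median of −0.22 (6 lower and 1 higher without replicate 2 of MnDps 24 h; a median of −0.34 without replicate 1). The acyl-CoA thioesterase Acot1 had 79.2 and 47.8 CPM at 24 h, against 208, 178 and 153 at 4 h and 69.3, 77.9 and 67.1 with vehicle (−1.51 ± 0.19), and the carnitine palmitoyltransferase Cpt2 (−0.64 ± 0.10) and the pantetheinase Vnn1 (−0.91 ± 0.11) fell too. Sqle, an oxygenase of cholesterol synthesis, was lower at 24 h (−0.73 ± 0.11).

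Small shifts of one sign were found in lists of genes known for short transcripts. Respiratory chain genes fell in 22 of 46 cases with none higher, at a median of −0.28, with Cox7c at 167 and 150.3 CPM at 24 h, against 220.1, 247 and 271 at 4 h (−0.63 ± 0.12), and Ndufa1 at −0.62 ± 0.09. Cytosolic ribosomal protein genes fell in 8 of 50, at a median of −0.24, and proteasome genes in 13 of 31, at −0.24. Of all tested genes 11.7% fell. Between replicates the list median had an SD of 0.125 for the respiratory chain, 0.191 for the ribosomal and 0.115 for the proteasome list. In a fit of only the groups compared, 5 respiratory chain, no ribosomal and 3 proteasome genes fell. When replicate 2 of MnDps 24 h was left out, 3 respiratory chain, no ribosomal and 4 proteasome genes fell. When replicate 1 was left out, these counts were 11, 6 and 8. The medians were −0.19, −0.11 and −0.16 without replicate 3 of MnDps 4 h. With the correction for transcript length and GC content 4 respiratory chain genes fell, Cox7c was no longer called (−0.24), and the ribosomal list had 1 gene higher and 1 lower at a median of −0.01.

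The same interval after Dps was used to see which of these changes differed. More genes changed with Dps, with 3270 higher at 24 h (22%) and 3356 lower (22.6%). The fall of the interferon list was found there too, in 55 of 58 genes at a median of −3.16, as was the rise of endothelial markers, in 18 of 36 with 6 lower. Of the genes higher with MnDps 513 were also higher with Dps (34.2% of the MnDps and 15.7% of the Dps genes), and 807 were lower with both (46.4% and 24%), whereas 583 changed in opposite directions. Across genes, which are not independent, the changes correlated at r = 0.53 and rho = 0.19, without a shared library. Fold changes followed transcript length with opposite sign, at a rho of 0.29 with MnDps and −0.43 with Dps. Once length and GC content were corrected for, r was 0.64 and rho 0.37.

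A test of the difference itself, the change with MnDps minus that with Dps, called 2034 genes higher (13.7%) and 2334 lower (15.7%). Without replicate 2 of MnDps 24 h it called 2724 genes in all, and with the correction for length and GC content 2288. With the correction 646 of 14760 genes were higher and 1642 lower. Of the 58 genes of the interferon list 15 were higher in this test and none lower, at a median of 0.38. After the correction 5 were higher and none lower, at a median of 0.42. The fall was thus smaller with MnDps for the genes called, most of which lost their call with the correction. Ifit2 had 23.8 and 16.3 CPM at MnDps 24 h, against 446, 377 and 423 at MnDps 4 h, and 13.1, 13.9 and 12.6 at Dps 24 h, against 554, 794 and 513 at Dps 4 h (difference 1.17 ± 0.24, adjusted p = 0.00296). Lgals3bp gave 0.61 ± 0.16, and its call was lost without replicate 1 of MnDps 24 h (0.52). Endothelial markers were higher in 10 of 36 cases and lower in 2, and after the correction higher in 4. Btnl9 was one of these, with 1.44, 2.5 and 2.49 CPM at Dps 24 h, against 0.732, 0.749 and 1.19 at Dps 4 h (difference 2.34 ± 0.61; 3.13 without replicate 2 of MnDps 4 h).

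**Figure D5:**
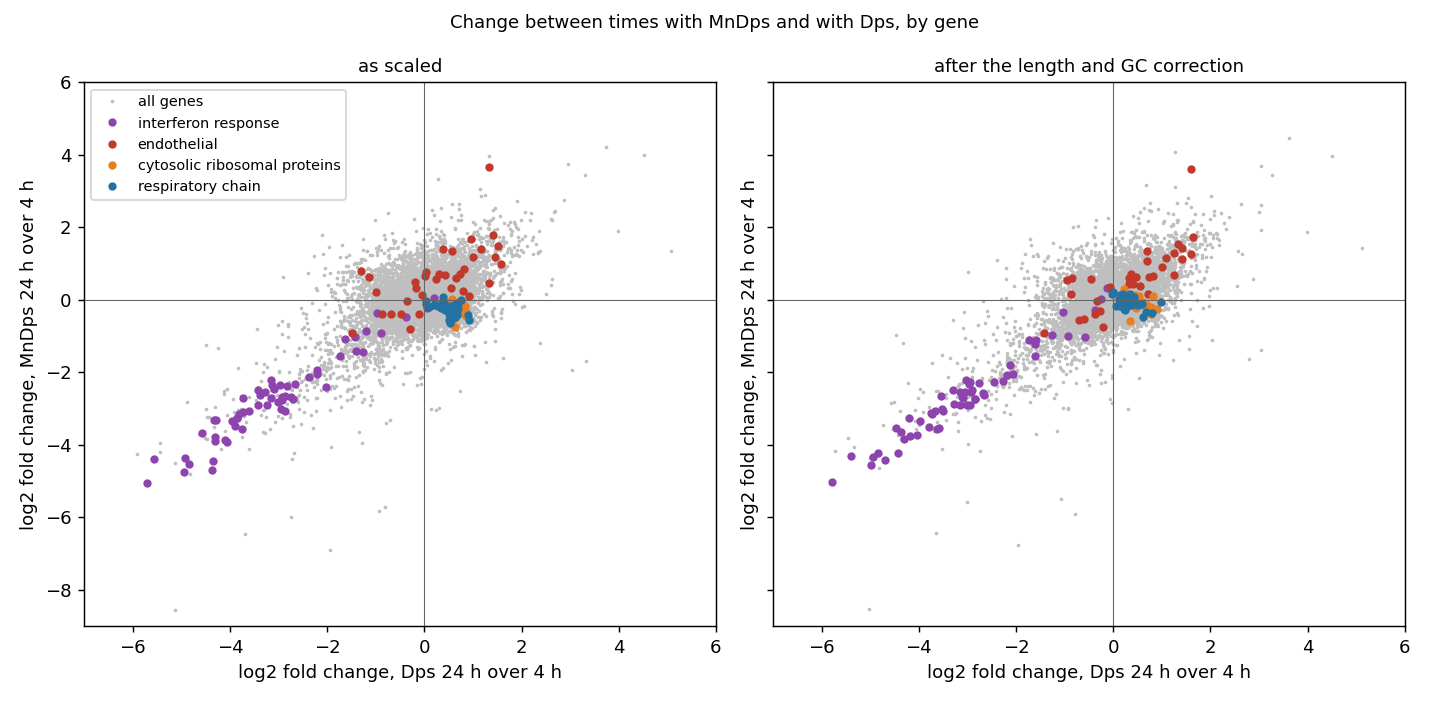
Log2 fold change of 24 h over 4 h for each gene with Dps (horizontal) and MnDps (vertical), as scaled (left) and after the correction for transcript length and GC content (right). Interferon genes (purple) lie along the diagonal in both panels, and the cloud of ribosomal (orange) and respiratory chain (blue) genes, below 0 with MnDps and above 0 with Dps, moves towards 0 after the correction.

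Several transporters and regulators of the tubule changed in opposite directions. Slc9a3 rose with MnDps, as given above, and fell with Dps, with 21.2, 22.7 and 19.5 CPM at Dps 24 h, against 44.4, 40.6 and 49 at Dps 4 h (−1.08 ± 0.20; difference 2.31 ± 0.31, adjusted p = 0.000458, and 1.97 after the correction). The mineralocorticoid receptor Nr3c2 rose with MnDps (1.0 ± 0.24) and gave −0.79 ± 0.21 with Dps (difference 1.79 ± 0.31, and 1.37 after the correction). Klhl3, which directs the breakdown of WNK kinases in the distal tubule, did likewise (0.86 ± 0.23 with MnDps and −0.79 ± 0.20 with Dps; difference 1.64 ± 0.30, and 1.1 after the correction). In all 3 genes the MnDps 4 h libraries were lower than the Dps 4 h libraries. Cebpb, a transcription factor of the acute-phase response, fell with MnDps, with 10.3 and 6.8 CPM at 24 h, against 15.3, 14.8 and 26.3 at 4 h, and gave 0.63 ± 0.23 with Dps (difference −1.79 ± 0.36); its MnDps fall was −0.87 and not called without replicate 2 of MnDps 24 h. Cebpd showed the same order (difference −1.87 ± 0.48), but its change with Dps was not called (0.52 ± 0.31, adjusted p = 0.188). The Cebpd difference was −1.62 and not called without replicate 2 of MnDps 24 h, and −1.28 without replicate 3 of MnDps 4 h. Its MnDps fall (−1.35 ± 0.36) was −1.1 and not called without replicate 2 of MnDps 24 h. Cebpb and Cebpd overlap Tmem189 and Spidr on the opposite strand by 312 and 562 exon bases.

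The lists of genes with short transcripts separated the materials. Respiratory chain genes rose in 43 of 46 cases with Dps and were lower in the test of the difference in 43, ribosomal protein genes rose in all 50 with Dps and were lower in 49, and proteasome genes were lower in 27 of 31. After the correction 30, 37 and 15 were lower. Antioxidant enzymes rose in 14 of 21 cases with Dps and were lower in the test of the difference in 14, and in 7 after the correction. The part of transcript length in these differences was not tested beyond that correction.

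Single genes were then ranked by the size of their change. Where the libraries of the groups did not overlap and one group reached 1 CPM, the largest fall was that of Olfr56, with no count at 24 h, 133 counts at 4 h and 2 with vehicle, at least 25.7-fold lower. It shares 111 exon bases and its strand with Ifi47. Gm5431 fell to 0.820 and 0.983 CPM at 24 h, against 26.6, 17.1 and 19 at 4 h and 0.769, 0.631 and 0.404 with vehicle (−4.5 ± 0.30, adjusted p = 3.02e-08). Next to Btnl9, the largest rises were those of Hhip, the decoy receptor of hedgehog ligands (3.33 ± 0.78), Astn1 (2.87 ± 0.57), the receptor of vasoactive intestinal peptide Vipr1 (2.76 ± 0.51), Atf7ip2 (2.72 ± 0.72), Lrrc3b (2.52 ± 0.64), Prrt2 (2.51 ± 0.32), Zan (2.48 ± 0.70), the kinase Srpk3 (2.42 ± 0.50), the matrix protein Egflam (2.39 ± 0.26), Ces1g (2.35 ± 0.57) and Cd109 (2.34 ± 0.51). Most of these rest on few counts. Hhip had 1.26 and 1.19 CPM at 24 h, against 0, 0 and 0.386 at 4 h, and its fitted value was 2.7 without replicate 2 of MnDps 4 h. Its 4 h counts came from replicate 3 alone, and without that library the fitted value (7.92) is no bound.

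Egflam and Prrt2 were better counted than most of them, with Egflam at 13.4 and 10.3 CPM at 24 h, against 2.34, 2.21 and 2.17 at 4 h and 10.3, 6.19 and 8.07 with vehicle, and Prrt2 at 4.41 and 3.64 at 24 h, against 0.564, 0.893 and 0.627 at 4 h and 3.73, 1.66 and 3.55 with vehicle. At both the 4 h libraries were the lowest. Leaving out replicate 1 of MnDps 24 h ended the calls of Atf7ip2 (2.02), Lrrc3b (2.31) and Cd109 (1.8), and leaving out replicate 2 that of Zan (2.04). Zan was also not called without replicate 2 of MnDps 4 h (2.21), and without that library Vipr1 gave 3.75 and Lrrc3b 3.89.

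Among genes with a mean of at least 100 CPM, large rises were those of the carboxylesterase Ces1g, the elastic fibre protein Fbln5 (1.62 ± 0.27), Plvap, the growth factor binding protein Igfbp5 (1.41 ± 0.21), Rnf24 (1.36 ± 0.33), the focal adhesion protein Tln2 (1.31 ± 0.14) and Emcn. Ces1g had 276 and 62.3 CPM at 24 h, against 28.7, 25.2 and 45.4 at 4 h and 34, 35.9 and 55.6 with vehicle (2.35 ± 0.57). It rests on replicate 1 of MnDps 24 h, without which the change was 0.91 and not called; it was 3.06 without replicate 2, and 2.19 and not called without replicate 2 of MnDps 4 h. Fbln5 had 144 and 106 CPM at 24 h, against 39.7, 41.9 and 40.4 at 4 h and 157, 101 and 134 with vehicle, and Igfbp5 had 378 and 457 at 24 h, against 170.1, 193 and 107 at 4 h and 415, 372 and 381 with vehicle. For both genes the 24 h libraries lay inside or next to the vehicle range and the 4 h libraries below it. Rnf24 was not called without replicate 2 of MnDps 24 h (1.03) or replicate 3 of MnDps 4 h (1.3). The epoxide hydrolase Ephx1, a detoxifying enzyme of the NRF2 list, rose to 96 and 89 CPM at 24 h, against 44.9, 33.6 and 48.3 at 4 h and 47.4, 60.8 and 54 with vehicle (1.13 ± 0.17, adjusted p = 0.000288).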

How the data were processed

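Messenger RNA of whole mouse kidney was sequenced in 14 libraries. Alignment was with STAR and counting with featureCounts, on mm10, per the submitters' processing notes. The sources used here give no versions, gene annotation, strand setting or treatment of multi-mapping reads. The deposited table holds raw counts per gene symbol, made by the authors and not normalised. The labels gave each library its treatment and time, and replicates were numbered in the order of the series, which pairs nothing. Total counts ran from 15097093 to 42074942, and intervals and floors cover counting error only.

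Genes with few counts were removed with filterByExpr, which kept 14854 of 24421. Counts were scaled by the trimmed mean of M-values. A single model with 5 group means was fitted to the 14 libraries with edgeR 4.0.16 in R 4.3.3 (quasi-likelihood F-test, robust dispersion, 9 residual degrees of freedom, biological coefficient of variation 10.7%), so that MnDps 24 h, with 2 libraries, shares the spread of the others. Benjamini-Hochberg adjustment was made within each comparison, with calls at an adjusted p under 0.05. The SE is the fold change divided by the square root of F. The floor for a group without counts was 3 counts over the group. Tests were checked on simulated counts.

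The comparison, the 47 gene lists and the named genes were chosen with earlier results of these data known. Named genes were the 12 largest rises and falls with at least 1 CPM, the 8 largest with at least 100 CPM, both without overlap between the groups, the largest differences between the MnDps and Dps changes, list members, and fixed kidney genes. Alternatives were median-of-ratios size factors, other count filters, DESeq2 1.42.0, limma 3.58.1 voom, a model of the compared groups alone, a minimum of 1.5-fold, an offset for transcript length and GC content (GENCODE M21; 99.4% of tested genes), and leaving out each library. Promoter sequences are from RefSeq, GRCm38.p6. Some genes that the naming rule picks are not reported here.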

Additional observations from a re-analysis of the deposited data

Results flagged for a closer look

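The change from 4 h to 24 h differed between MnDps and Dps for 4368 genes by edgeR's quasi-likelihood test of the difference with Benjamini-Hochberg adjustment. The genes named here passed that test, with differences given as the MnDps change minus the Dps change on the log2 scale. Large positive differences that were also called after the correction for transcript length and GC content were 3.48 for Shroom4, an actin-binding protein, 3.33 for Zbed6, 3.24 for Zfp366, 2.93 for the xylosyltransferase Xylt1 and 2.79 for Sntb1, a syntrophin. Shroom4 had 5.49 and 10.8 CPM at MnDps 24 h, against 5.21, 3.34 and 2.17 at MnDps 4 h, and 3.68, 3.18 and 5.26 at Dps 24 h, against 21.6, 16.1 and 21.2 at Dps 4 h. It was 2.88 without replicate 2 of MnDps 24 h, and Zbed6 was 3.94 without replicate 1 of MnDps 4 h. With that correction these 5 differences were 2.89, 3.08, 2.76, 2.29 and 2.50. The MnDps change itself was not called for Shroom4 (adjusted p = 0.052) or Zbed6 (adjusted p = 0.0902). Zfp366 and Sntb1 rest on few counts, with means of 0.931 and 0.901 CPM at MnDps 24 h. Their means at MnDps 4 h were 0.2 and 0.397 CPM. Zbed6 shares 46 exon bases and its strand with Zc3h11a, so its value is uncertain. Zc3h11a was far more abundant, with means of 121 CPM at MnDps 24 h and 90.4 at MnDps 4 h.

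Negative differences of the same kind were −2.56 for Mir703, −2.34 for Gadd45g, a stress-induced regulator of growth arrest, −2.25 for Eva1c, −1.87 for Cebpd and −1.79 for Cebpb. Gadd45g had 78.5 and 36.9 CPM at MnDps 24 h, against 57.1, 35 and 62.2 at MnDps 4 h, and 68.4, 134 and 121 at Dps 24 h, against 19.8, 18 and 19.5 at Dps 4 h. Without replicate 1 of MnDps 24 h its difference was −2.97. Mir703 is annotated as a miRNA gene of 109 bases, and whether its counts measure the microRNA was not tested. Mir703 had under 1 CPM in both MnDps 24 h libraries (0.567 and 0.369). It was −2.24 and not called without replicate 2 of MnDps 24 h and −1.68 without replicate 2 of MnDps 4 h. Among genes described above, the test also called Slc9a3 (2.31), Nr3c2 (1.79), Klhl3 (1.64), Btnl9 (2.34), Ifit2 (1.17) and Lgals3bp (0.61). Each of the genes named in these paragraphs kept its direction and its call after the length and GC correction.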

How the results depend on the processing

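Of the 153 named genes called between MnDps 24 h and MnDps 4 h, 130 were called in each fit that left out 1 library. Size factors, a stricter count filter and DESeq2 ended none of these calls, and limma voom and no count filter 1 each. A fit of only the groups compared ended 6, a minimum of 1.5-fold 44, and the length and GC correction 4. The 3242 genes called became 1878 in the fit of only the groups compared (939 higher and 939 lower). With a minimum of 1.5-fold they became 457, of which 144 were higher, and the count of genes changed between MnDps 24 h and MnDps 4 h, lower at 24 h, was 313. Leaving out each library gave 1336 to 3176 genes (621 to 1487 higher, 715 to 1689 lower). The 4368 genes that differed between MnDps and Dps became 189 with a minimum of 1.5-fold (123 higher and 66 lower), 2288 with the correction (646 higher), and 2724 to 4598 on leaving out each library (1164 to 2228 higher). Of the genes called between the MnDps times, none that an alternative fit also called changed direction. Among genes that differed between MnDps and Dps and were also called with the correction, 5 changed direction. Genes that lost their call were not counted here. Among named genes, values that changed sign were small or split by library. With the correction they were Ifi27 (0.031), B2m (0.16) and Lrp2 (−0.029). Without replicate 1 of MnDps 4 h it was Ifi27l2a (−0.03), and without replicate 2 of MnDps 4 h Gadd45g (−0.06). Without replicate 1 of MnDps 24 h they were Ifi27l2a (−0.15) and Gadd45g (−0.49), and without replicate 2 Havcr1 (0.19) and Slc34a1 (−0.001018). Over all fits that left out 1 library, Ifi27l2a ran from −0.15 to 0.23, Havcr1 from −1.62 to 0.19, Slc34a1 from −0.001018 to 0.36 and Gadd45g from −0.49 to 0.61. The cause was not tested. No paired analysis was made, since nothing in the labels pairs a 24 h library with a 4 h library. The 24 h group has 2 libraries, the smaller with 15097093 counts, and this limits genes of few counts.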

Other observations

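Of 36 lysosome genes 5 rose and 7 fell between MnDps 24 h and MnDps 4 h, with 4 and 2 without replicate 2 of MnDps 24 h and 3 and 4 without replicate 1. Cholesterol synthesis gave 3 of 25 genes higher and 2 lower, with none higher without replicate 2 of MnDps 24 h. Vitamin D, phosphate and Klotho genes gave 4 of 16 higher and 1 lower, with 1 and 1 without the same library. Among renin-angiotensin genes 1 of 10 rose. Of 20 glucocorticoid response genes 7 fell and 1 rose, with 1 and 1 without replicate 2 of MnDps 24 h. Heat shock and chaperone genes fell in 5 of 28 cases, with 1 without replicate 1 of MnDps 24 h, and ribosome biogenesis genes in 9 of 29, with 3 without replicate 2. Of 14 adipocyte markers 1 fell. Of 11 urothelial markers 2 rose and 1 fell, and none passed when either 24 h library was left out. The red cell and platelet list had 5 tested genes, of which Slc4a1 rose (1.33 ± 0.24). That list summed to 123 and 68.6 CPM at 24 h, against 50.07, 50.11 and 38.5 at 4 h and 57.1, 59.7 and 58.7 with vehicle. Of 11 adrenal markers 1 was tested, and it was not called.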
